A study of Xenopus laevis with 2 samples.

Results

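The genes of the muscle sarcomere and of excitation-contraction coupling were described in Xenopus laevis animal caps that expressed xnr2, a Nodal ligand. Members were chosen by gene symbol, from the families of myosin heavy and light chains, troponins, tropomyosins, actinins, myosin-binding proteins, M-band proteins, titin, nebulin, desmin, other Z disc proteins, thin filament caps, calsequestrins, ryanodine receptors, calcium channel subunits and calcium pumps. The rule found 122 gene models with 63 symbols among the 24364 models of the table. There was 1 group of 2 libraries, numbered 1 and 3 in the labels. The caps carried exogenous xnr2 RNA injected in early cleavage, were cut at stage 10 and were harvested at stage 14, and each RNA sample pooled 10 explants. Nothing in the labels says that the libraries came from separate clutches, so their spread may be technical. No control caps enter any statement here, so the levels say nothing of what xnr2 changed, and no test between conditions could be made. In tissue explants, fewer cells of a type and less RNA per cell cannot be told apart.

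A sarcomere is the contractile unit of striated muscle, in which thick filaments of myosin slide along thin filaments of actin between Z discs. Calcium binds troponin C on the thin filament, troponin I then releases its block and tropomyosin moves off the myosin-binding sites. The surface membrane is coupled to calcium release by the dihydropyridine receptor and the ryanodine receptor, and the calcium pump returns calcium to the sarcoplasmic reticulum, where calsequestrin stores it. Most of these proteins come in isoforms that mammals use mainly in fast skeletal, slow skeletal or cardiac fibres. In frog embryos, striated muscle arises first from the somites, under the control of factors such as MyoD.

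Library 1 held 25880104 exon reads and library 3 held 29238297. Levels are CPM, the exon reads of a model scaled to a fixed total per library, divided by the exon length in kilobases where genes are compared, and are given as mean ± SD over the 2 libraries. Gene models carry human symbols. Homeologous L and S genes, and at times paralogs, therefore have a common symbol, and the chromosome on assembly version 9.1 tells them apart. How reads that match several similar genes were handled is unknown, so levels of close copies are uncertain, and the kit does not keep the strand of overlapping genes. Skeletal muscle markers outside the rule were mostly high in both libraries. Of 31 models, 23 (74.2%) reached 1 CPM in both, against 62.8% of all models. Summed levels were 19666 CPM in library 1 and 21420 CPM in library 3. Models of PVALB, on the same list, had at most 1 read in a library. Of 20 models of cardiac marker genes, a list that shares 5 symbols with the members, only MYH6 on 1S reached 1 CPM in both, and NKX2-5 on 3S had 39 and 0 reads. Of smooth muscle markers 6 of 17 models (35.3%) reached 1 CPM in both, and of blood markers 2 of 6 (33.3%), against 62.8% of all models. The smooth muscle list was led by MYOCD, at 144 and 231 CPM in libraries 1 and 3 (7S) and 128 and 184 (7L). The 2 blood models were those of LMO2, at 360 and 372 CPM (4S) and 6.96 and 7.76 (4L). Both models of the smooth muscle heavy chain MYH11 had 0 reads in either library, which allows up to 0.116 CPM in library 1 and 0.103 CPM in library 3 (3 reads, counting error only). Markers of 2 other tissues differed between the libraries. Of 22 epidermis models with at least 10 reads, 18 were lower in library 3, where 45.6% of all models were lower. Of these 22, 10 were at least 2-fold lower and 0 at least 2-fold higher, against 4.61% and 4.6% of all models. The furthest apart was ITLN1 on 7L, at 788 and 21 reads in libraries 1 and 3. All 8 notochord models, which are L and S copies of 4 of the 6 listed genes, were higher in library 3. In libraries 1 and 3, summed levels were 3467 and 3786 CPM for epidermis and 1266 and 2166 CPM for notochord. The 4 epidermis models higher in library 3 included abundant keratins: KRT8 at 1043 and 1246 CPM (2L) and 666 and 928 (2S), and KRT18 at 635 and 798 (2S). KRT18 on 2L was lower, at 751 and 719 CPM. The part of epidermis and notochord in the differences between the libraries described here was not tested.

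The members were unevenly expressed, with a few models at very high levels. Of the 122 models, 74 (60.7%) reached 1 CPM in both libraries, against 62.8% of all models. At 10 CPM the shares were 46.7% (57 models) and 37.1%. At 100 CPM the members stood at 30 models (24.6%), against 7.38% of all models. These 30 models held 94.8 ± 0.315% of the reads of all members, and all members together took 2.65 ± 0.0970% of exon reads. At the other end, 12 models (9.84%) had no read in either library, close to the 9.26% of all models, and 35 (28.7%) had fewer than 10 reads in both together, against 22.8%. By level per kb, 2 members were among the 10 highest models of the table and 12 among the 200 highest. The models whose symbols mark striated muscle, 73 in number, made up 83.0 ± 0.284% of the members' summed level per kb. Classes follow the deposited symbols. TPM4 on 3L, at 601 CPM per kb on average, thus counted as nonmuscle or smooth muscle, although its gene order, described below, is that of tpm1.L. DES, at 821 for both models together, counted as mixed.

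**Figure D1:**
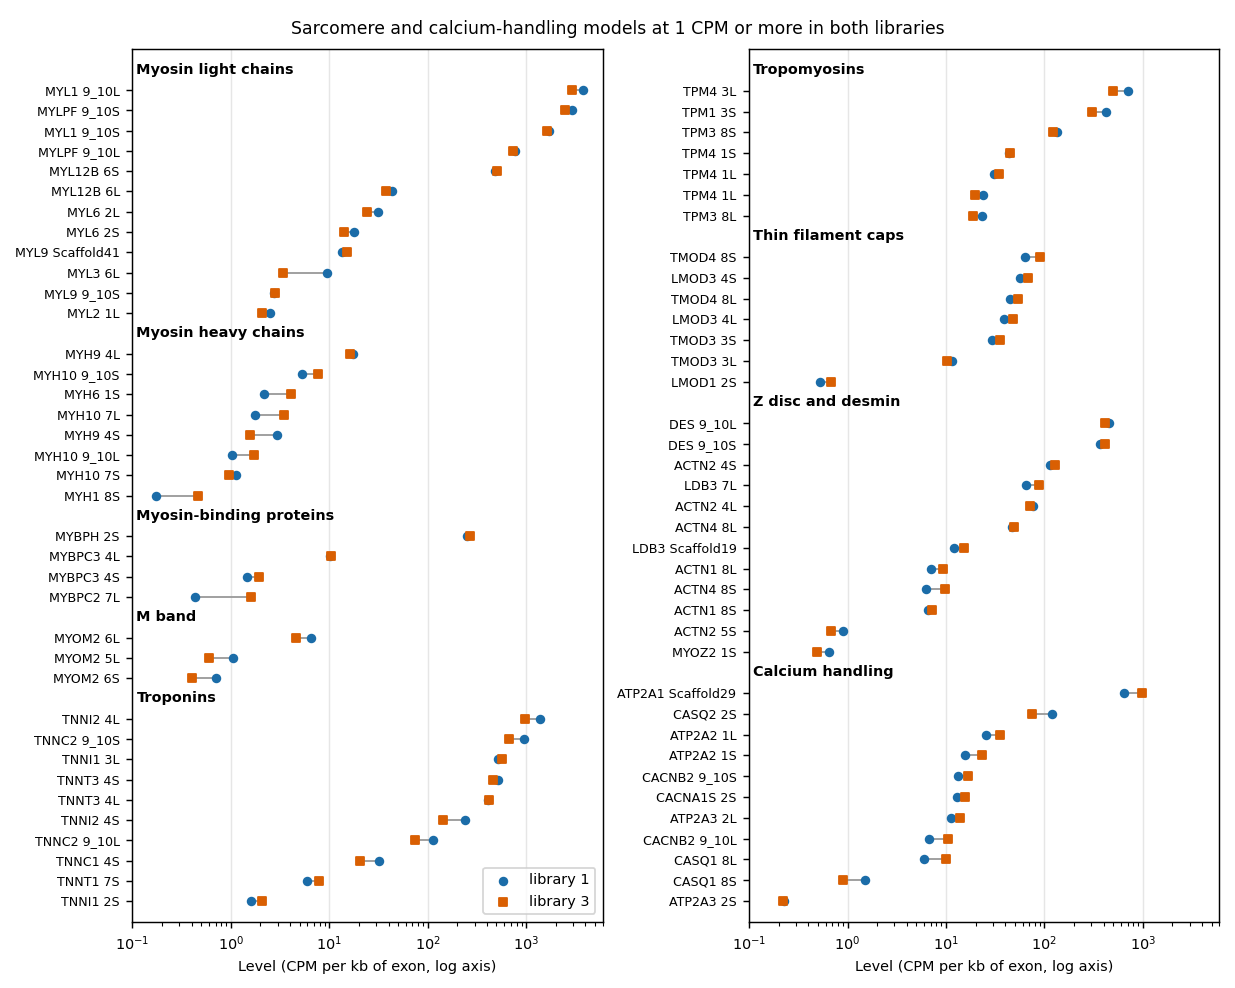
Levels of the 74 member models at 1 CPM or more in both libraries, in CPM per kb of exon on a log axis, grouped by role. Circles are library 1 and squares library 3. The fast light chains MYL1 and MYLPF stand highest, at up to 3783 CPM per kb, and the heavy chain models lie below 20 CPM per kb.

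Fast skeletal light chains of myosin were the most abundant members. Light chains wrap the neck of the myosin head, and each head carries an essential and a regulatory chain. The essential chain MYL1 stood at 3783 and 2936 CPM per kb in libraries 1 and 3 for its model on 9_10L and at 1707 and 1638 CPM per kb on 9_10S. The regulatory chain MYLPF stood at 2896 and 2507 CPM per kb on 9_10S and at 773 and 735 CPM per kb on 9_10L. The ranges of these 4 models over the libraries did not overlap one another. Together they held 0.979 ± 0.106% of exon reads and 50.3 ± 1.23% of the members' summed level per kb. The sum over striated essential chains (MYL1, MYL3 and MYL4) exceeded that over striated regulatory chains (MYLPF, MYL2 and MYL7) by 1.497-fold in library 1 and 1.41-fold in library 3.

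Light chains named after slow and cardiac isoforms were low. MYL3, the ventricular and slow essential chain in mammals, had 241 and 98 reads in libraries 1 and 3 (6L), or 9.52 and 3.43 CPM per kb. The atrial essential chain MYL4 had 84 and 16 reads on 9_10S and none on 9_10L or 6S, and MYL7, its atrial regulatory partner, had none (3S). The ventricular regulatory chain MYL2 had 48 and 45 reads on 1L and 54 and 13 on 1S, 6 and 1 on 2L and none on 2S. All of these models were thus far below MYL1 and MYLPF in both libraries. Among light chains of nonmuscle and smooth muscle myosin, MYL12B on 6S led with 478 and 507 CPM per kb, and it made up 82.9 ± 1.99% of the summed level of that class. MYL12B on 6L had 43.7 and 38.1 CPM per kb, and the models of MYL6 and MYL9 lay between 2.76 and 27.8 CPM per kb on average.

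Heavy chain models stood far below the light chains. The motor chain of the thick filament was represented by 5 models named after striated isoforms, which summed to 2.48 CPM per kb in library 1 and 4.66 in library 3. MYH6, the atrial heavy chain, accounted for most of this with 2.19 and 4.13 CPM per kb (1S, 333 and 709 reads). The fast chain MYH1 had 26 and 78 reads (8S), MYH7 had 8 and 2 (9_10L), MYH7B had 4 in each (9_10L) and the second MYH6 model had 3 and 5 (2L). Striated light chains summed to 9179 and 7823 CPM per kb in the same libraries. No model called MYH2, MYH3, MYH4, MYH8 or MYH13 was found by the symbol rule. The level of striated heavy chain as a whole therefore cannot be read from these sums. Nonmuscle heavy chains, the motors of cell division and cell shape change, were represented by MYH9 at 17.0 ± 0.847 (4L) and 2.25 ± 0.972 CPM per kb (4S). The 4 models of MYH10, the other nonmuscle chain found, ranged from 1.04 ± 0.135 (7S) to 6.49 ± 1.79 CPM per kb (9_10S).

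Of the proteins that bind the thick filament, MYBPH was by far the highest. MYBPH, a short relative of myosin-binding protein C, stood at 254 and 272 CPM per kb (2S), which was 95.3 ± 0.262% of the summed level of this group. The cardiac-type protein MYBPC3 followed at 10.1 and 10.5 CPM per kb (4L) and at 1.46 and 1.93 CPM per kb (4S). The fast-type MYBPC2 had 54 and 222 reads (7L) and the slow-type MYBPC1 had none (3L). MYBPH and MYBPC3 on 4L thus differed little between the libraries, while MYBPC2 was higher in library 3.

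Titin and M-band models were low. Titin is the giant spring that spans from Z disc to M band, and myomesins link thick filaments in the M band. The 4 models called TTN had at most 5 reads each in a library and 12 reads in all in each library. Their exon lengths are only 2708 to 5793 bases and none had a RefSeq match by gene order, so the level of titin as a whole cannot be read from them. MYOM2 was represented by 4 models, at 6.47 and 4.59 CPM per kb on 6L, 1.06 and 0.603 on 5L, 0.708 and 0.408 on 6S and 0 and 4 reads on 5S. MYOM3 had 9 and 4 reads (Scaffold110). The 5 models of this group with at least 10 reads had lower CPM in library 3, where 45.6% of all models were lower, and 1 of them was a TTN model with 5 reads in each library.

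All 3 troponin subunits were abundant, by level per kb mainly as fast isoforms. Troponin C, the calcium sensor, was led by the fast form TNNC2 at 953 and 674 CPM per kb (9_10S) and 113 and 75.1 (9_10L). Troponin I, the inhibitory subunit, was led by the fast form TNNI2 at 1384 and 969 CPM per kb (4L) and 238 and 142 (4S). Next in that family came TNNI1, named after the slow form, at 523 and 569 CPM per kb (3L), whose range overlapped neither TNNI2 model. Without division by exon length this TNNI1 model had 875 and 951 CPM and TNNI2 on 4L had 1158.5 and 811, so these ranges overlapped. Troponin T, which ties the complex to tropomyosin, was led by the fast form TNNT3 at 519 and 459 CPM per kb (4S) and 415 and 424 (4L). The summed levels per kb of troponin T and troponin C had a ratio of 0.857 in library 1 and 1.16 in library 3, so neither was higher in both. Without division by exon length troponin T was higher in both, at 0.201 and 0.184% of exon reads against 0.113 and 0.0789%. Per kb, the sum for troponin I was 1.96 and 2.18 times that for troponin C.

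The remaining troponin models covered a wide range of low levels. TNNC1, the slow and cardiac calcium sensor, stood at 31.7 and 20.7 CPM per kb (4S). Slow troponin T, TNNT1, stood at 5.94 and 7.90 CPM per kb (7S) and had 6 and 9 reads on 7L. TNNI1 on 2S stood at 1.62 and 2.07 CPM per kb. The cardiac forms were at or near 0: TNNT2 had 5 and 3 reads (2S) and 0 and 1 (2L), and TNNI3 had none (7S). TNNI3K, a kinase that binds cardiac troponin I and is no sarcomere subunit, met the symbol rule and had at most 3 reads a library for either model.

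The share of fast-type models was computed in 8 families in which mammals have fast and slow or cardiac isoforms. It was 99.9 ± 0.0560% for regulatory and 99.8 ± 0.111% for essential light chains, 99.2 ± 0.183% for troponin T, 97.2 ± 0.132% for troponin C and 94.2 ± 0.174% for the calcium pumps ATP2A1 and ATP2A2. Troponin I had 75.5% in library 1 and 66.1% in library 3, with TNNI1 on 3L holding the rest almost alone. Without division by exon length the mean for troponin I was 55.7%. The order was turned in 2 of the 8 families, with fast shares of 5.92 and 12.7% for calsequestrin and 3.63 and 11.4% for myosin-binding protein C. Myosin heavy chains were not among the 8 families. The only fast-type heavy chain model, MYH1 on 8S, had 26 and 78 reads and stood at 0.173 and 0.460 CPM per kb. The cardiac-type MYH6 on 1S stood at 2.19 and 4.13. As no model called MYH2, MYH3, MYH4, MYH8 or MYH13 was found, the order of fast and cardiac heavy chains cannot be read from these models. All 15 fast-type models, MYH1 included, reached 1 CPM in both libraries. Of 27 slow-type or cardiac-type models 12 (44.4%) did, against 62.8% of all models. The fibre classes are those of mammalian proteins, and which fibres these models serve in the frog was not tested.

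**Figure D2:**
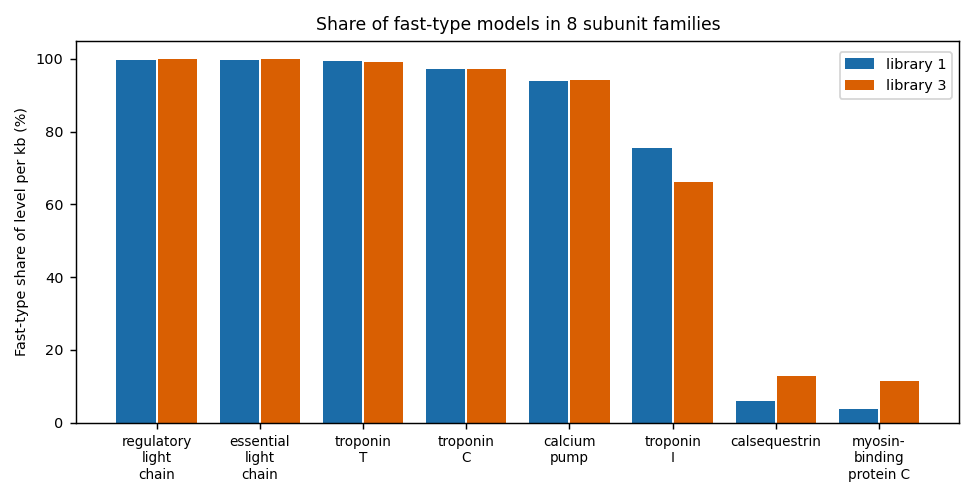
Share of fast-type models in the summed level per kb of 8 subunit families, in percent, with 1 bar for each library. In the first 5 families the share is above 94% in both libraries, in troponin I it is 75.5 and 66.1%, and in calsequestrin and myosin-binding protein C it stays below 13%.

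Tropomyosin was carried mainly by a pair of models on chromosome 3. Tropomyosin is the coiled coil that lies along actin and positions troponin. A model called TPM4 stood at 709 and 493 CPM per kb (3L) and TPM1 at 420 and 304 (3S). Both were lower in library 3, where 45.6% of all models were lower. Together they made up 79.1 ± 3.21% of the summed tropomyosin level. In mammals TPM4 is mainly a cytoskeletal form, but the genes around the 3L model were those of another tropomyosin gene, described with the gene order. TPM3 followed at 136 and 122 CPM per kb (8S) and 23.3 and 18.7 (8L). Other models called TPM4 had 44.2 and 44.5 CPM per kb (1S), 30.9 and 34.4 and, for a second model on 1L, 23.6 and 20.0. TPM2 had 27 and 20 reads (Scaffold73).

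Among the proteins that set thin filament length, the skeletal forms TMOD4 and LMOD3 led. Tropomodulins cap the slow-growing end of actin, and leiomodins promote filament growth there. TMOD4 stood at 63.9 and 90.6 CPM per kb (8S) and 44.3 and 53.7 (8L). LMOD3 stood at 56.9 and 68.3 CPM per kb (4S) and 39.1 and 48.0 (4L). All 4 models, which are L and S copies of 2 genes, were higher in library 3, where 45.6% of all models were lower. The broadly expressed cap TMOD3 had 29.3 and 35.8 CPM per kb (3S) and 11.4 and 10.1 (3L). TMOD1, a cap of heart and red cells in mammals, had 43 and 22 reads (1S) and 4 and 5 (1L). The cardiac LMOD2, the neural TMOD2 and NEBL, the nebulin relative of heart, had at most 4 reads in a library in any model. The smooth muscle form LMOD1 had 31 and 46 reads (2S). No model called NEB was found by the symbol rule.

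Desmin dominated the Z disc group. DES, the intermediate filament of muscle that links Z discs, stood at 449 and 412 CPM per kb (9_10L) and 369 and 412 (9_10S), 69.6 ± 1.69% of the group. Models called ACTN2, an actin cross-linker of the Z disc, stood at 114 and 127 CPM per kb (4S) and 76.4 and 72.0 (4L), while those on chromosome 5 had 74 and 63 reads (5S) and 3 and 0 (5L). LDB3, which holds actinin at the Z disc, stood at 64.8 and 89.1 CPM per kb (7L) and 12.2 and 15.4 (Scaffold19). The nonmuscle actinin ACTN4 had 46.9 and 48.8 CPM per kb (8L) and 6.29 and 9.72 (8S), and ACTN1 had 6.997 and 9.31 (8L) and 6.63 and 7.25 (8S). Calcineurin-binding Z disc proteins were scarce, with 45 and 38 reads for MYOZ2 on 1S, 14 and 6 for MYOZ2 on 1L and at most 9 reads in a library for any model of MYOZ1 or MYOZ3. The titin cap TCAP had 0 and 1 reads (9_10L) and none (9_10S). Within the striated Z disc genes, levels thus ran from near 0 for TCAP to over 100 CPM per kb for ACTN2 on 4S.

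Calcium handling was led by the fast pump ATP2A1. It stood at 650.3 and 974.8 CPM per kb (Scaffold29, 56465 and 95623 reads), 92.8 ± 0.367% of the summed level of all ATP2A models. ATP2A2, the pump of slow and cardiac muscle and of many other cells, had 25.8 and 35.7 CPM per kb (1L) and 15.5 and 23.4 (1S), and ATP2A3 had 11.3 and 13.9 (2L) and 0.225 and 0.219 (2S). The calcium store protein CASQ2, named after the cardiac form, stood at 119.95 and 74.6 CPM per kb (2S). CASQ1, named after the fast form, had 6.04 and 9.998 CPM per kb (8L) and 1.4996 and 0.904 (8S). CACNA1S, the voltage-sensing channel subunit of skeletal muscle, stood at 12.8 and 15.6 CPM per kb (2S). Of the channel's beta subunits, models called CACNB2 on 9_10S and 9_10L had 13.2 and 16.8 and 6.66 and 10.5 CPM per kb, while those on 6L and 6S and the models of CACNB3 and CACNB4 had at most 18 reads in a library. RYR3, a release channel, had 26 and 19 reads (8L). No model called RYR1 or RYR2 was found by the symbol rule.

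The deposited names were set beside gene order, since neighbouring genes tell paralogs apart. For each member the 10 named genes on either side were compared with those of family members in the RefSeq gene table of assembly version 10.1, from which only names and order were used. With at least 4 shared neighbours required, 107 of 122 models had a RefSeq gene of their family with matching neighbours. The name was the same for 93 of them and another for 14. The model called TPM4 on 3L shared 12 neighbours with tpm1.L and at most 1 with any other tropomyosin gene. The models called ACTN2 on 4L and 4S shared 13 and 7 neighbours with actn3.L, the fast-fibre actinin. The CACNB2 models on 9_10L and 9_10S shared 14 and 13 with cacnb1.L, the beta subunit of skeletal muscle in mammals. The MYOM2 models on 6L and 6S shared 14 and 15 with myom1.L and myom1.S, the MYL4 model on 6S shared 12 with myl3.S, and the MYL2 models on 2L and 2S shared 16 and 10 with myl10.L. MYH1 on 8S shared 13 with myh13.S, MYH6 on 2L shared 4 with myh15.L, and the second TPM4 model on 1L shared 4 with tpm2.L. MYH7 on 9_10L, starting at 42354301, shared 8 with myh10.S. The MYH10 model near it, starting at 42025487, also shared 8 with myh10.S, so this match does not separate MYH7 from its neighbour. TNNI1 on 3L, counted under the same name, shared 8 with tnni1.2.L, a gene apart from tnni1.S on 2S. Values above carry the deposited symbols, and gene order alone does not settle which gene a model is.

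Members also lay next to each other. With a distance of at most 200 kb, 18 models fell into 9 groups. TNNT3 and TNNI2 lay 94614 bases apart on 4L (chr4L:16118401-16124571 and chr4L:16219185-16221217, both on the minus strand) and 90282 bases apart on 4S. Both TNNT3 models led troponin T, and TNNI2 on 4L led troponin I. TNNI2 on 4S, at 190 CPM per kb on average, stood below TNNI1 on 3L at 546. On 7S the near-silent TNNI3 lay 14295 bases from TNNT1. TMOD4 and CASQ1 lay 176425 bases apart on 8L and 106047 bases apart on 8S, with TMOD4 the higher of the pair on both chromosomes. MYL12B and MYOM2 were neighbours on 6L and 6S, at 40.9 and 5.53 CPM per kb and at 493 and 0.558 CPM per kb on average. Neighbouring members thus included pairs that were both high and pairs of very unlike level.

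Xenopus laevis is an allotetraploid, with L and S subgenomes that came from different ancestors, and many genes are kept as a pair. A pair was a symbol with exactly 1 model on the L and 1 on the S chromosome of the same number. The members gave 44 pairs, of which 36 had at least 10 reads. In 20 of these (55.6%) a copy was at least 2-fold higher per kb in both libraries, against 46.7% of 5967 pairs in the table. S was the higher copy in 12 of the 20 and L in 8. Over the whole table, S was the higher copy in 1121 of 2785 such pairs and L in 1664. As shares of all 5967 pairs, L was 2-fold higher in 27.9% and S in 18.8%. With at least 10 reads required in each copy, S was higher in 8 and L in 7 of 28 pairs. The shares over all pairs were not computed at that setting. The median log2 ratio of L over S was -0.13 for the members and 0.24 for all pairs. As 36 pairs are few and many belong to the same families, these shares are given as a description. The sign of the ratio was the same in both libraries in 34 of 36 pairs, the exceptions being MYL2 and TTN, both with low counts.

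**Figure D3:**
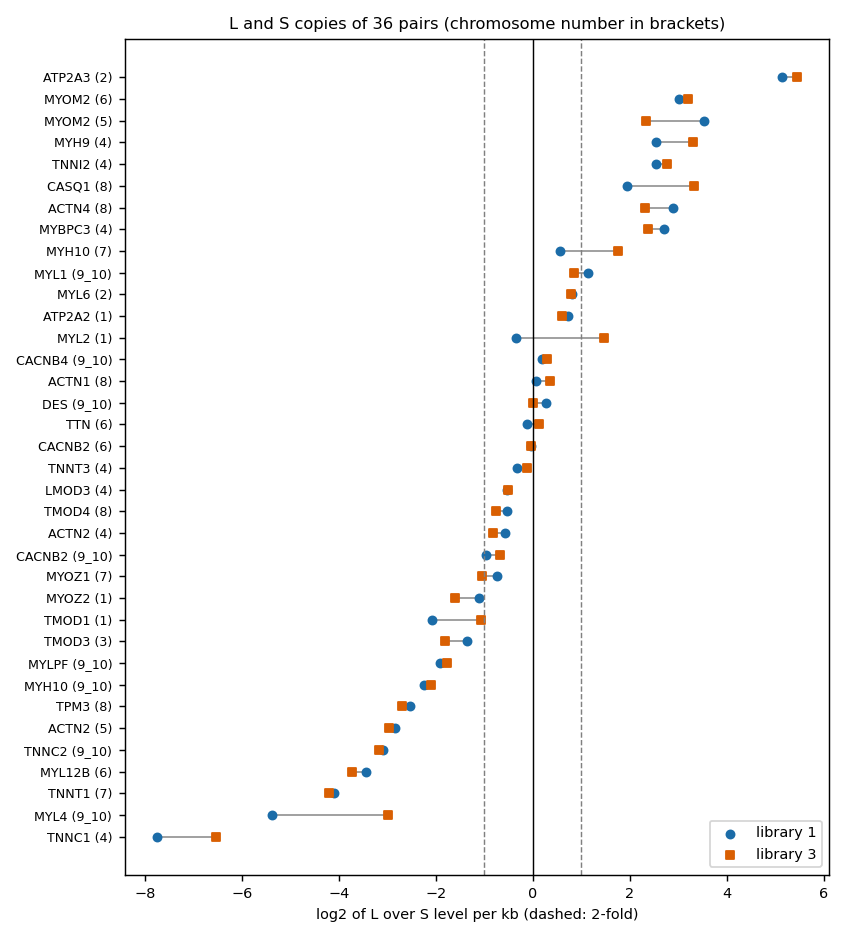
Log2 of the L over the S level per kb, with 0.1 CPM per kb added to each, for 36 member pairs in library 1 (circles) and library 3 (squares), with 2-fold marked by dashed lines. In 12 pairs S is at least 2-fold higher in both libraries, in 8 pairs L is, and MYL2 and TTN lie on either side of 0.

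Subunits of a single filament differed in which copy led. In troponin C the S copies led, with log2 ratios of -3.08 and -3.16 for TNNC2 in libraries 1 and 3, and for TNNC1 with 1674 and 1236 reads from S against 1 and 3 from L. In fast troponin I the L copy led instead, with ratios of 2.54 and 2.77 for TNNI2. Fast troponin T lay near equality per kb, at -0.33 and -0.11 for TNNT3, but its models have exon lengths of 973 bases on L and 3081 bases on S, and in reads alone the ratio was -1.88. Of the light chains, MYL1 had ratios of 1.15 and 0.84 and MYLPF of -1.91 and -1.77, so that the essential chain was higher from L and the regulatory chain from S. MYL12B had -3.45 and -3.73. For MYL6 the direction turned when reads were not divided by length, from 0.80 to -2.12, with exon lengths of 769 and 5843 bases. It was the single member pair to change sign among those at 10 reads.

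Other pairs spread over the whole range. DES was close to equal, with ratios of 0.28 and 0.0012, as was ACTN1 at 0.08 and 0.36. LMOD3, at -0.54 and -0.51, TMOD4, at -0.53 and -0.75, and ACTN2 on chromosome 4, at -0.58 and -0.81, were higher from S by less than 2-fold. TPM3 at -2.54 and -2.71 and TMOD3 at -1.35 and -1.81 were more than 2-fold higher from S. The pairs higher from L included ATP2A3 at 5.13 and 5.46, the 6L and 6S models of MYOM2 at 3.02 and 3.21, MYH9 at 2.54 and 3.31, ACTN4 at 2.88 and 2.32, and MYBPC3 at 2.71 and 2.38. CASQ1, also higher from L, differed between the libraries, at 1.94 and 3.33. Set beside each other because they share neighbours, TPM4 on 3L and TPM1 on 3S had a ratio of 0.75 and 0.70. The median difference between the libraries was 0.28 over member pairs and 0.30 over all pairs.

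Variation of the members between the pools was read from the ratio of the libraries. A difference here has 1 library on each side, so it has no replicate check and no test. Of 87 members with at least 10 reads, 44 were higher and 43 lower in library 3, with a median log2 ratio of 0.01, beside 0.05 over all models (0.1 CPM added to each level). Among all models, 45.6% were lower in library 3. The members' median fell below 0 with other scalings, at -0.0464 with TMM and -0.0298 with DESeq2 size factors, and at a minimum of 1 read, at -0.0155. At least 2-fold differences were seen in 8 members (9.20%), against 9.21% of all models. Of these, 2 were higher in library 3, where the background was 4.6%, and 6 were lower, where it was 4.61%. At a minimum of 100 reads 2 were lower, a setting at which the share over all models was not computed. The 8 members comprised 7 of 48 striated models (14.6%), none of 29 nonmuscle or smooth muscle models and TMOD1, and whether these shares differ was not tested.

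All 8 of these members had low levels. The higher ones were the fast-type MYBPC2 at 54 and 222 reads, a ratio of 3.64 (95% exact counting interval 2.69 to 4.99), and MYH1 at 26 and 78 reads, a ratio of 2.66 (1.68 to 4.31). The lower ones included the slow-type or cardiac-type light chains MYL3 at 0.360 (0.282 to 0.457), MYL4 on 9_10S at 0.169 (0.0922 to 0.290) and MYL2 on 1S at 0.213 (0.107 to 0.396). MYH7, TMOD1 on 1S and MYOZ2 on 1L completed the list, with 10, 65 and 20 reads in both libraries together. The cardiac-type MYH6 on 1S went the other way at 1.88 (1.65 to 2.15), as did MYBPC3 on 4S at 1.32 (1.08 to 1.63). Cardiac-type models thus showed no common direction. All 8 striated light chain models with at least 10 reads were lower in library 3, where 45.6% of all models were lower. The fast MYL1 and MYLPF were among them, each with an L and an S copy. Of these, MYL1 on 9_10S at 0.959 and MYLPF on 9_10L at 0.951 were close to equal. The interval of MYL2 on 1L, at 0.830 (0.540 to 1.27), included equal levels. All 8 models are shorter than 1500 bases. Of all models of that length with a mean of 10 CPM or more, 65.8% were lower. The MYL3, MYL4 and MYL2 models with ratios given here have exons of 651 to 978 bases, and the MYL1 and MYLPF models 1093 to 1350 bases. MYH6 and MYBPC3 have 5867 and 4190 bases, and the higher MYBPC2 and MYH1 have 4780 and 5801. MYH7, at 4355 bases, was lower. The part of exon length was not tested.

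Among abundant members the differences were under 2-fold and varied with exon length. Of the 13 members shorter than 1500 bases with a mean of 10 CPM or more, 10 (76.9%) were lower in library 3, against 65.8% of all models of that length and level, with a median log2 ratio of -0.21. Of the 25 members of 3000 bases or more, 18 (72.0%) were higher, against 72.1% of all such models, with a median of 0.29. Over the 57 members at 10 CPM the Spearman correlation of length and ratio was 0.51, and over all 9565 models at that level it was 0.34, where the corresponding medians were -0.14 and 0.19. These correlations are across genes of the same libraries and carry no test. The pump ATP2A1, with 3355 bases of exon, was 1.499-fold higher in library 3, while TNNI2 on 4L and TNNC2 on 9_10S, with 837 and 985 bases, stood at 0.700 and 0.707 of library 1. Both tropomyosin models on chromosome 3, of middle length, were lower as well, at 0.696 (3L) and 0.723 (3S). The part of exon length in these differences was not tested.

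**Figure D4:**
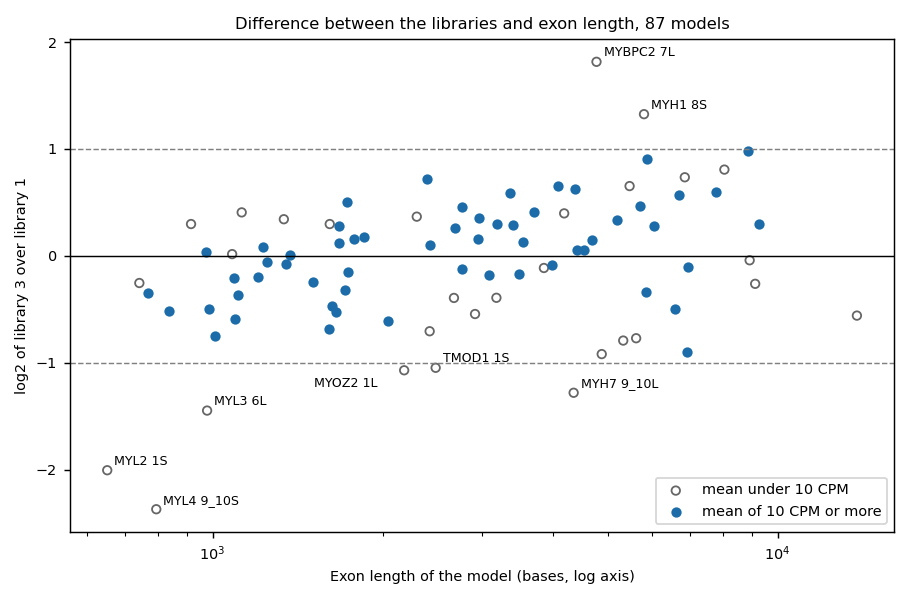
Log2 ratio of library 3 over library 1 against exon length on a log axis for the 87 members with at least 10 reads. Filled points have a mean of 10 CPM or more and open points less; the 8 labelled models lie beyond the dashed lines at 2-fold, and all 8 are open.

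Partners of the sarcomere outside the symbol rule included the actins of its thin filament. Of 73 listed genes 62 were found, as 123 models, and 82 of these (66.7%) reached 1 CPM in both libraries, against 62.8% of all models. The 4 highest per kb on average were sarcomeric actins, with ACTC1 at 1873 and 2555 CPM per kb (8L) and 1654.5 and 2237.5 (8S) and ACTA1 at 1550.2 and 1784.5 (1L) and 1342 and 1276 (4L). In this list 51 models were higher and 47 lower in library 3 among 98 with at least 10 reads, where 45.6% of all models were lower. Of the 98, 5 were at least 2-fold higher and 5 lower, beside 4.6% and 4.61% of all models.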

How the data were processed

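PolyA RNA of pooled animal caps was sequenced as 2 single-end libraries, per the labels' protocols, which leave the read length of each library unstated. Whether both libraries had the same read length is therefore unknown. The deposited values are a signal per gene model: per the file headers, HOMER counted exon reads on Mayball models placed on assembly version 9.1 and scaled each library by a constant. The submitters' processing notes name FastQC, STAR 2.4.0k, HOMER and edgeR. Dividing by the smallest step gave whole reads for 100.0% of values in both libraries (within 0.05), and CPM was computed from these reads. Division by the deposited exon length gave CPM per kb.

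The members and gene lists were chosen with earlier results of these data known. Any member could be named, with values in both libraries for up to 6 models a role by level per kb, members at least 2-fold apart, the most unequal pairs and members at 0 reads; of other genes, the 4 highest of the pathway list. With 1 group no test was made; ratios between libraries needed 10 reads over both, and their intervals are 95% Clopper-Pearson intervals that cover counting error only. Fibre classes are those of mammalian proteins. Alternatives used TMM factors from edgeR 4.0.16 and size factors from DESeq2 1.42.0 in R 4.3.3, and other steps used Python 3.11.15. The calculations were tested on simulated data. No other per-sample column was in the table. No sequences are shown, as none were used here.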

Additional observations from a re-analysis of the deposited data

How the results depend on the processing

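Over members, the median log2 ratio between libraries (3 over 1) changed sign with the setting. From 0.01 it went to 0.042 at a minimum of 100 reads, -0.0155 at 1 read, -0.0464 with TMM and -0.0298 with DESeq2 size factors. All models moved likewise, from 0.05 to -0.0041 and 0.01. At 1.5-fold, 11 members were higher and 15 lower in library 3, in place of 2 and 6 at 2-fold. At 100 reads, 2 were lower. Without division by length the striated share was 76.1% in place of 83.0%, and the fast share was 89.3% for calcium pumps, 94.4% for troponin C, 55.7% for troponin I and 99.6% for troponin T. The alternative for the fast shares was chosen after seeing the data. With either library left out, 74 to 79 members reached 1 CPM, members took 2.58 to 2.72% of exon reads, the striated share was 82.8 to 83.2%, and 9 to 10 pairs were higher from L and 12 to 13 from S. With 10 reads in each copy, 7 pairs were higher from L and 8 from S, of 28, in place of 8 and 12 of 36. Other alternatives kept the counts of pairs within 1.5 times. The counts under changed settings in this section were taken over members only, with no share over all models or pairs beside them. Models with few reads limit the ratios. No paired analysis was possible because the libraries form 1 group.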
